A study of Mus musculus with 8 samples.

Results

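The genes described here are immediate early genes, which are transcribed within minutes of a stimulus from factors that the cell already holds. A set of 10 was named: the AP-1 genes Fos, Fosl1, Fosl2, Jun, Junb, Jund and Atf3, the zinc finger factor Egr1, and the immediate early response genes Ier2 and Ier3. Members were all probes whose gene symbol in the deposited array table is one of these names. The rule found 7 of the 10 genes, each with 1 probe, among the 25697 probes and 18138 symbols of the table. Of these 7 genes, 5 (Fos, Jun, Junb, Egr1 and Ier3) were detected (p under 0.01 against negative control beads) by 1 array or more and were tested, while Atf3 and Ier2 were detected by no array. Fosl1, Fosl2 and Jund had no probe under those symbols and were not analysed here by the rule. A probe named Jund1, an older symbol of Jund, is given beside the members but was chosen after the rule had been applied.

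The cells were primary mouse aortic smooth muscle cells grown out of explants of several aortas and kept in charcoal-treated serum before use. Of 6 samples, 3 received a scrambled control oligonucleotide and 3 received the moR-21 mimetic, a synthetic copy of the small RNA that lies beside miR-21 in the same hairpin. Both oligonucleotides were transfected at 5 nM, and total RNA was taken at 48 h for Illumina BeadChip arrays. A pair of arrays was run for control sample 1 and for moR-21 sample 3, which makes 8 arrays, and such pairs were averaged. The study names male C57BL/6 mice for its work on injured arteries, but the sources used here tie no strain, sex or age to the aortas, and no untransfected cells were compared. Nothing in the labels says whether the 3 samples of a group came from separate cultures, so the p-values measure only the spread between these samples.

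AP-1 is a dimer of a Jun protein with a Fos, Jun or ATF protein, held together by leucine zippers, and it binds a short palindromic DNA site. Serum and growth factors activate MAP kinases, which act on factors already bound at the Fos and Egr1 promoters, while stress activates JNK, which phosphorylates Jun. In smooth muscle cells these genes are known for their rapid and short response to serum, injury and stretch, so an array at 48 h reads the level long after the transfection and not the early peak. Junb binds the same sites as Jun, and can weaken or replace it depending on the partner.

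The sequences printed here are those of the hairpin that holds moR-21 and of the promoters through which the Jun and Fos genes are known to be driven. Target sites for moR-21 in the members' transcripts were not searched. Any part of the promoter letters in the changes below was not tested. The annotated hairpin starts inside moR-21, so the stretch that precedes miR-21a-5p, at chr11:86584142-86584158, holds moR-21 apart from its 5′ end, and miR-21a-5p spans chr11:86584120-86584141, both on the minus strand of GRCm38.p6 (RefSeq). Capitals mark the run GUACC, which lies in the stretch that the study altered in its mutant mimetics, and in miR-21a-5p the seed, bases 2 to 8.

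Mir21a hairpin, 5′ end: uGUACCaccuugucgga
miR-21a-5p: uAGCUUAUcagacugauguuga

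Promoter windows from 250 bases before to 50 bases after the gene's start were matched for 7 of the 10 genes (Atf3, Fos, Fosl2, Ier3, Jun, Junb and Jund). Motifs were searched on both strands, and each share below is over 32851 mouse promoter windows of the same length. The Jun promoter is known for a pair of AP-1-like sites, TTACCTCA and TGACATCA, which Jun dimers themselves bind. Those letters were found at positions -164 to -157 and -45 to -38 before the start of Jun, and occur in 0.889% and 3.62% of all windows. The window of Junb held the core TGACG of the cAMP response element at -106 to -102, and that of Fos held it at -129 to -125 and at -66 to -62, with the TATA box letters TATAAA at -33 to -28. TGACG was also found on the opposite strand of Atf3 at -7 to -3, and TATAAA in Junb at 1 to 6, counted from the start. TGACG occurs in 20.8% of all windows, counting those within the full element TGACGTCA, which occurs in 1.79%, and TATAAA in 13.6%. The AP-1 site TGANTCA, present in 7.81% of windows, was found in none of the 7. Capitals below mark these letters in chr4:95052250-95052396 (Jun, minus strand), chr8:84978840-84978864 (Junb, minus strand) and chr12:85473814-85473872 (Fos, plus strand) of GRCm38.p6.

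Jun, -174 to -28: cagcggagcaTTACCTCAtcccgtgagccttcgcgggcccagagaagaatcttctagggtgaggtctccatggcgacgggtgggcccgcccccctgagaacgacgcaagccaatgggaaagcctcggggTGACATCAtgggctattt
Junb, -116 to -92: ttcctgacagTGACGcgagccgcct
Fos, -76 to -18: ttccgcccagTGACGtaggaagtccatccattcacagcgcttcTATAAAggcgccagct

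The array median intensity was between 102.5 and 109.2, and 10285 to 10512 probes were detected per array. The labels' description field calls the cells endothelial, whereas the source and cell type fields call them smooth muscle. Of 8 endothelial markers 7 were not detected on any array (Pecam1, Cdh5, Kdr, Tek, Tie1, Emcn and Cldn5). The other, Vwf, was detected on all 8 arrays but near background, at a mean log2 signal of 6.89 in control and 6.94 in moR-21 samples. Of 8 smooth muscle markers 5 were detected, Acta2 among them, but Myh11, Cnn1 and Myocd, which mark the contractile state, were not. Marker genes moved between the groups, in both directions within some of the lists. In the smooth muscle list Acta2 read 0.40 on the log2 scale and was called higher (not called with normexp background correction, described below). Tagln, detected on 4 arrays, read 0.20, not called but called higher with normexp at 0.71. Lmod1 read 0.05 and Smtn -0.05. Des read -0.38, not called but called lower with normexp at -0.97. The summed normalized intensity of this list was 10253 to 10634 in control and 13004 to 13845 in moR-21 samples, and without Acta2 it was 1062 to 1129 against 1051 to 1104, which overlap. The sum of 5 fibroblast markers, all detected, was 17468 to 18175 against 15085 to 15925. Of these, 4 were lower: Lum, called at -0.56, and Dcn (-0.22), Col1a1 (-0.20) and Pdgfra (-0.17), not called. Thy1 was called higher at 0.53, but not with normexp. The sum of 5 mesothelial markers was 1062 to 1082 against 688.2 to 706.0, with Msln, Krt8 and Krt18 not detected. Upk3b was called lower at -1.24, and without it the mesothelial sum was 447.2 to 465.1 against 434.8 to 445.3. For 7 macrophage markers the sum was 760.9 to 779.6 against 825.2 to 830.2, with Ptprc, Cd68, Emr1, Itgam and Lyz1 not detected, and without Lyz2, called higher at 0.48, it was 602.3 to 618.5 against 603.1 to 609.3. The endothelial sum was 816.2 to 829.9 against 826.5 to 843.9. All these sums were taken without background correction. Except in the fibroblast list they include probes detected on no array, so part of each such sum is background. The part of these shifts in the results below was not tested.

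Junb, the AP-1 subunit that can restrain Jun, was the only one of the 5 tested members called between the treatments, and it was lower with moR-21. Its log2 normalized signal was 8.05, 8.22 and 8.01 in the control samples and 7.74, 7.75 and 7.63 in the moR-21 samples. Every moR-21 sample lay below every control sample, and control sample 2 stood highest. The means were 8.09 ± 0.115 and 7.70 ± 0.068 (SD, n = 3), a log2 fold change of -0.39 (SE 0.060, 95% CI -0.52 to -0.26), or 1.31-fold lower, with a limma adjusted p = 1.85e-04. Calls required more than a 1.3-fold difference together with an adjusted p below 0.002, so Junb passed the fold limit narrowly. Of all tested probes, 6.58% had a log2 fold change at least as large in size. On the raw scale its intensity was 251.8 to 283.0 on control arrays and 188.9 to 218.8 on moR-21 arrays. As RNA was taken from whole cultures, fewer cells that express a gene and less RNA per cell cannot be told apart here. Without control sample 2 the log2 fold change of Junb was -0.32 and without moR-21 sample 3 it was -0.35, and in both cases it was no longer called.

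Jun, the subunit after which the family is named and the main target of JNK, differed the other way. Its log2 normalized signal was 7.10, 7.10 and 7.05 in the control samples and 7.38, 7.48 and 7.30 in the moR-21 samples. Each moR-21 sample lay above every control sample, and the control samples lay close together. The means were 7.08 ± 0.026 and 7.38 ± 0.088 (SD, n = 3), with a log2 fold change of 0.30 (SE 0.052, 95% CI 0.19 to 0.41) and a limma adjusted p = 4.69e-04. At 1.23-fold the difference was under the fold limit, so Jun was not called higher. Its raw intensity was low, at 130.9 to 147.6 on control and 149.7 to 172.9 on moR-21 arrays, but it was detected on all 8. Both Jun and Junb were therefore read at every array, and their groups of samples separated in opposite directions.

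**Figure D1:**
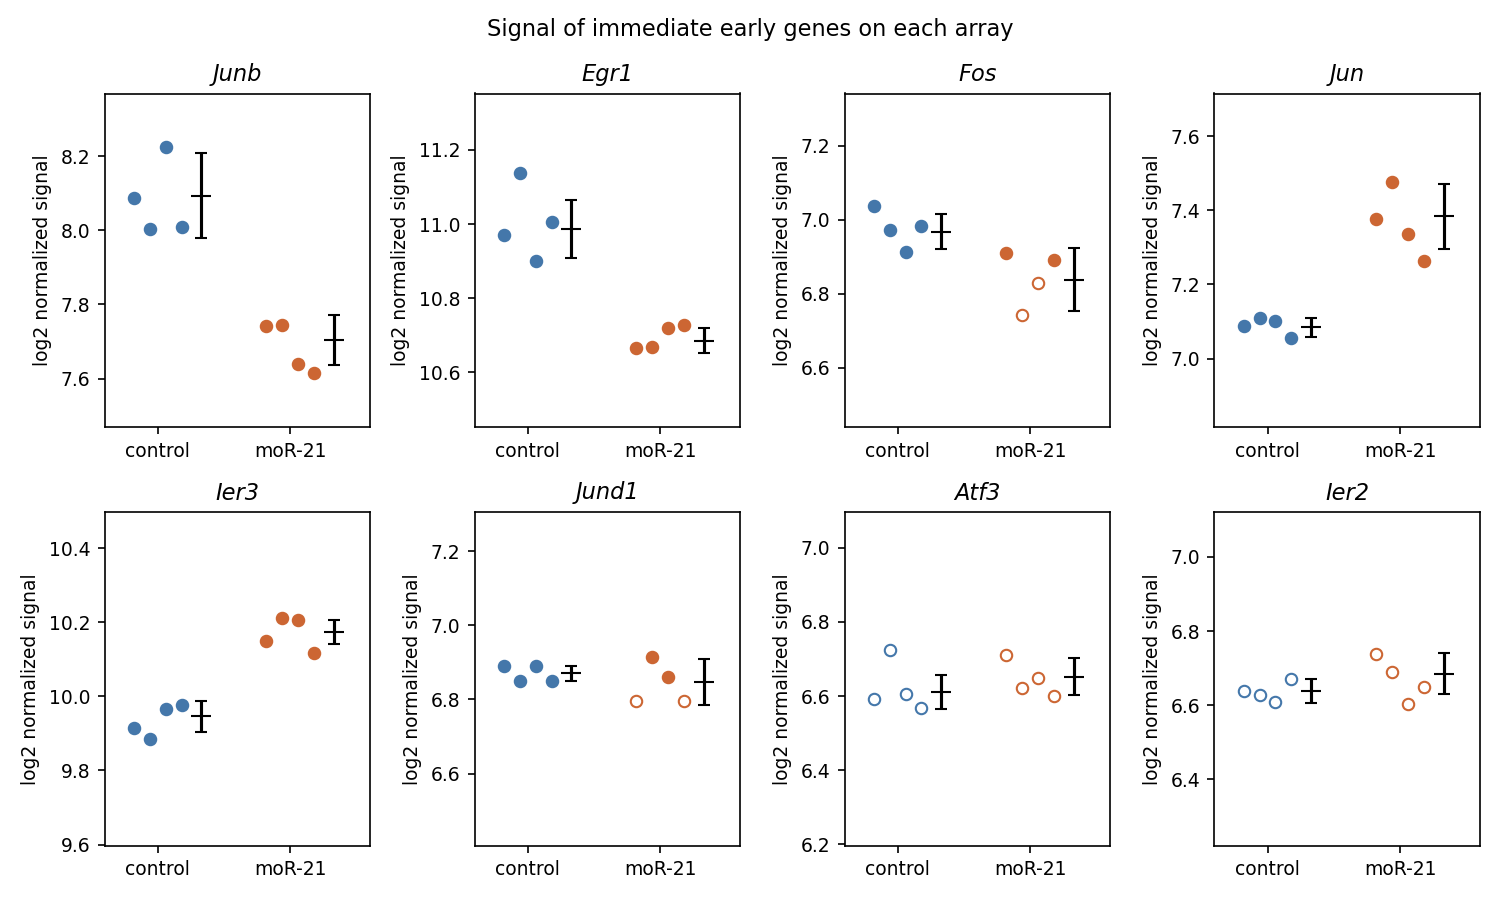
Log2 normalized signal (vertical axis, the same span in every panel) of 7 member genes and the Jund1 probe on each of the 4 control and 4 moR-21 arrays. Filled points have a detection p-value under 0.01, open points do not, and the black bars give mean ± SD over the 3 samples of a group. Junb, Egr1 and Fos lie lower, and Jun and Ier3 higher, in all 3 moR-21 samples, whereas every point of Atf3 and Ier2 is open.

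Jund differs from its relatives in being made steadily rather than in bursts. Its older-named probe, Jund1, read 6.87, 6.89 and 6.85 in control and 6.80, 6.92 and 6.83 in moR-21 samples on the log2 scale. These groups overlapped, with a log2 fold change of -0.02 (95% CI -0.13 to 0.08) and a limma adjusted p = 0.754. The Jund1 probe was near background, with a detection p-value under 0.01 on 4 control and 2 moR-21 arrays.

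Fos, the classic partner of Jun, was close to the detection limit. Its log2 normalized signal was 7.00, 6.91 and 6.98 in control and 6.91, 6.74 and 6.86 in moR-21 samples. All moR-21 samples lay below the control samples, although moR-21 sample 1 and control sample 2 were nearly equal. The log2 fold change was -0.13 (SE 0.053, 95% CI -0.24 to -0.02) with a limma adjusted p = 0.0779, so Fos did not pass the test. Leaving out 1 sample at a time moved it between -0.17 and -0.08, the latter without moR-21 sample 2 (adjusted p = 0.281, limma). It was detected on 4 control arrays and on 2 of the 4 moR-21 arrays, at raw intensities of 106.6 to 133.2.

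Egr1, a zinc finger factor that binds GC-rich sites and drives growth factor and matrix genes in injured vessels, was bright on every array. Its log2 normalized signal was 11.05, 10.90 and 11.01 in control and 10.67, 10.67 and 10.72 in moR-21 samples. The moR-21 samples lay close together and below all control samples. The log2 fold change was -0.30 (SE 0.051, 95% CI -0.41 to -0.19), or 1.23-fold lower, with a limma adjusted p = 3.93e-04, and Egr1 was under the fold limit and not called. The pair of arrays of control sample 1 differed by 0.169 in this gene. Its raw intensity was 1768 to 2549 on control and 1555 to 1731 on moR-21 arrays.

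Ier3, which is not a transcription factor but a short-lived protein that acts on cell survival and ERK signalling, was also bright. Its log2 normalized signal was 9.90, 9.96 and 9.98 in control and 10.15, 10.21 and 10.16 in moR-21 samples. Every moR-21 sample was above every control sample. The log2 fold change was 0.23 (SE 0.046, 95% CI 0.13 to 0.33), or 1.17-fold higher, with a limma adjusted p = 0.00158, and Ier3 was not called at the fold limit.

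Atf3, a stress-induced bZIP factor, and Ier2, a nuclear immediate early protein, gave no signal above the negative control beads. The detection p-value was 0.0752 to 0.806 for Atf3, at intensities of 93.0 to 110.1, and 0.0602 to 0.589 for Ier2, at 95.6 to 108.7. A probe at this level does not show that the RNA was absent, and no change was estimated for either gene.

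Among the 5 tested members, 1 was called lower, where 3.85% of all 11651 tested probes were, and 0 were called higher, where 3.12% were. All 5 had an unadjusted limma p under 0.05, as had 42.2% of all tested probes, and Jun and Ier3 were the 2 that were higher with moR-21. In all 5 the groups of samples did not overlap, but this held for 45.0% of all tested probes. An adjusted p under 0.002 at any fold was reached by 4 of the 5 members, with Junb and Egr1 lower and Jun and Ier3 higher, where 15.7% of tested probes reached it. This depended on the processing. With median scaling the limma adjusted p was over 0.002 for Jun (0.00225), Egr1 (0.00854) and Ier3 (0.0126). That of Ier3 was also over 0.002 with cyclic loess (0.00330), array B alone (0.00572) and robust eBayes with a trend (0.00301). The median log2 fold change of the 5 members was -0.13, beside 0.0056 over all 8727 tested genes. The members thus did not move in 1 direction, and the size of their changes ranged from 1.09-fold for Fos to 1.31-fold for Junb.

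**Figure D2:**
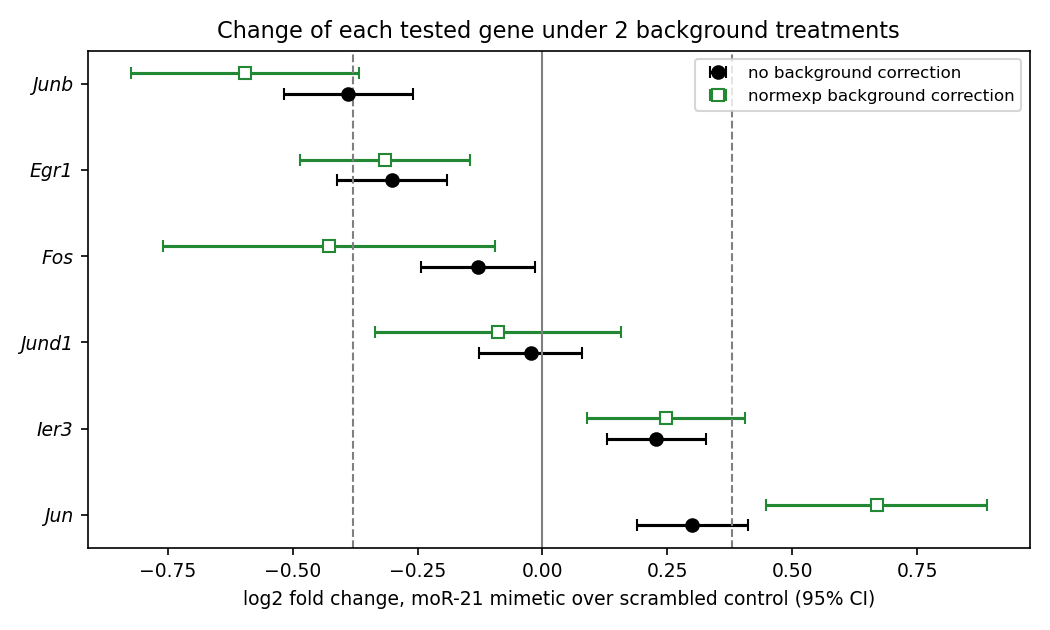
Log2 fold change of moR-21 over control (horizontal axis) with its 95% CI for the 5 tested members and the Jund1 probe, without background correction (filled circles) and with normexp background correction (open squares). Dashed lines mark the fold limit of 1.3 in each direction. The squares of Junb, Fos and Jun lie further from 0 than the circles, those of Egr1 and Ier3 stay close to them, and no gene changes direction.

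The deposited intensities include background light, which normexp estimates and removes. With normexp background correction the log2 fold change of Jun was 0.67 (SE 0.098, 95% CI 0.45 to 0.89), or 1.59-fold, with a limma adjusted p = 0.00119, and Jun was called higher. That of Junb was -0.60, or 1.51-fold lower, but its adjusted p = 0.00250 was over the limit and Junb was not called. After this correction 4.38% of tested probes were called lower and 3.59% higher. Fos moved to -0.43 with an adjusted p = 0.0554 (limma), while Egr1 (-0.32, adjusted p = 0.0126) and Ier3 (0.25, adjusted p = 0.0271) were little altered in size. The direction of all 5 members was as without correction, and the call passed from Junb to Jun.

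**Figure D3:**
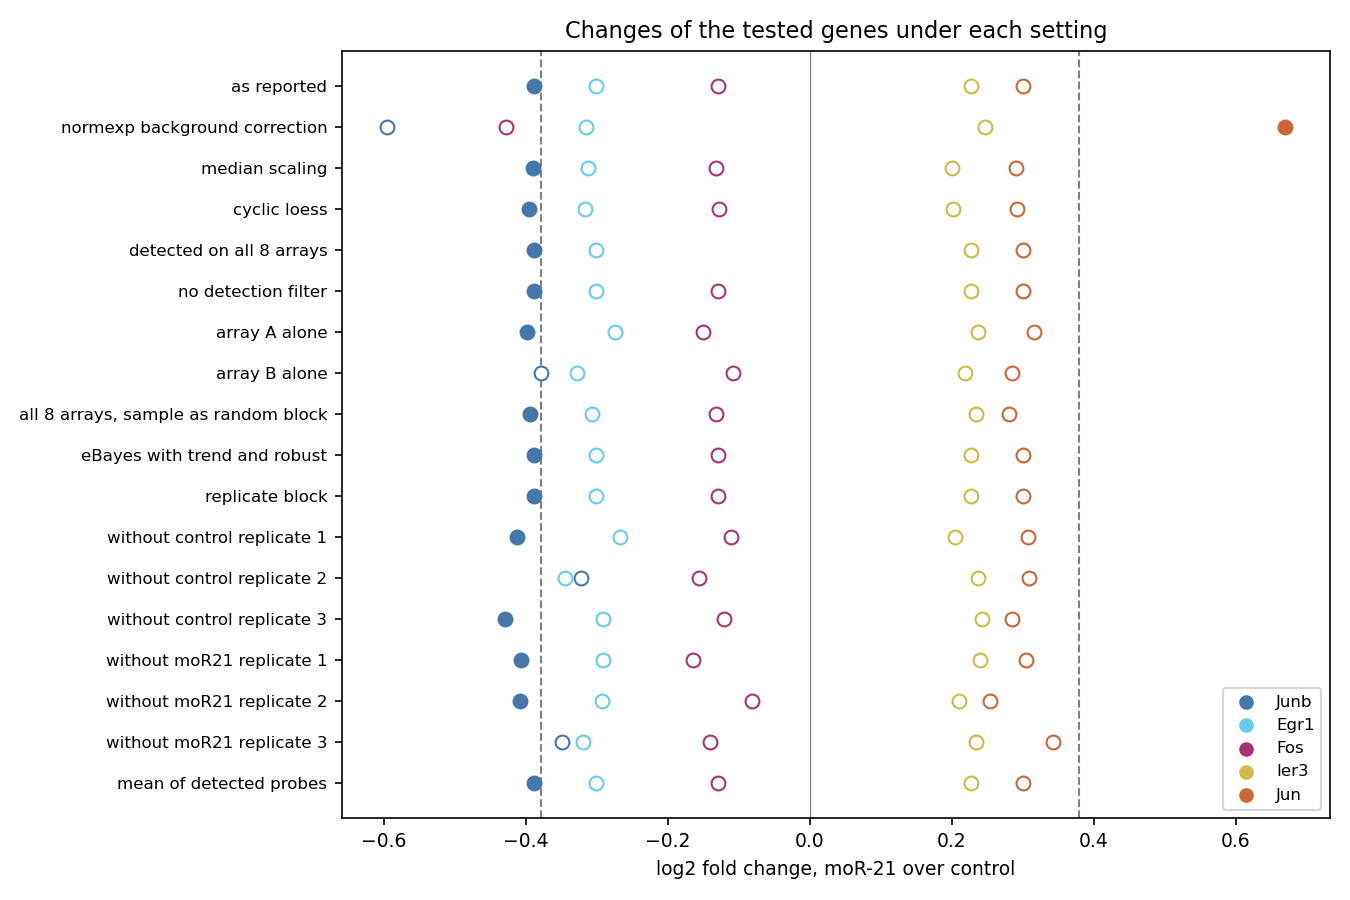
Log2 fold change of moR-21 over control (horizontal axis) of the 5 tested members under each way of processing the arrays (vertical axis). Filled points passed both the 1.3-fold limit (dashed lines) and an adjusted p of 0.002. Junb stays between -0.60 and -0.32 and crosses the fold limit, and Jun stays between 0.25 and 0.67.

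Genes that surround these factors were read from 6 lists, each gene at its brightest detected probe. Over all 8727 genes read this way, 4.38% were called lower, 3.41% were called higher and 44.6% had an unadjusted limma p under 0.05. The bZIP partners, which pair with Jun and Fos proteins, showed no call among 6 detected of 13 on the array, with a median log2 fold change of 0.008, and 3 of the 6 had an unadjusted limma p under 0.05. Jdp2, a repressor that dimerizes with Jun, read -0.38 (adjusted p = 8.72e-05, limma), just under the fold limit, and -0.71 with normexp, where it was called lower. It was also called lower with median scaling, cyclic loess or array B alone, and without control sample 3 or moR-21 sample 3. Crem, a cAMP-responsive factor with activating and repressing forms, read 0.21, and 0.48 with normexp, where it was called higher. Both were named for their values and not by the rule for named genes.

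Of the other immediate early transcription factors, 3 of 16 detected were called lower and 0 higher, and 11 had an unadjusted limma p under 0.05. Their median log2 fold change was -0.05. Id1, which blocks basic helix-loop-helix factors and responds to BMP signals, lay between 9.96 and 10.04 in control and 9.36 and 9.45 in moR-21 samples on the log2 scale, a change of -0.58 (adjusted p = 5.31e-07, limma). Klf4, a zinc finger factor that represses smooth muscle contractile genes, changed by -0.52 (adjusted p = 1.83e-06, limma), from 7.56 to 7.67 in control to 7.05 to 7.12 in moR-21 samples. Its dimmer probes read -0.43, which was called, and -0.21, which was not. Klf2, a flow-responsive relative of Klf4, changed by -0.47 (adjusted p = 1.19e-05, limma), from 7.38 to 7.49 in control to 6.87 to 7.04 in moR-21 samples. The groups of all 3 genes were well apart. With normexp the log2 fold changes were -0.65 for Id1, -1.08 for Klf4 and -1.12 for Klf2, all called lower. Among genes named for their values, Axud1 read -0.29, and -0.55 with normexp, where it was called lower. Id2 read 0.31 and Ets1 0.26, both with a limma adjusted p under 0.002 but under the fold limit. Neither of them was called with normexp.

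Immediate early genes that are not transcription factors had 2 of 15 detected members called lower and 0 higher, with a median of -0.10 and 9 with an unadjusted limma p under 0.05. Sgk1, a serum- and glucocorticoid-induced kinase, changed by -0.54 (adjusted p = 5.35e-06, limma) and Gadd45b, a stress sensor that binds MAP kinase kinases, by -0.43 (adjusted p = 3.90e-05). With normexp they read -0.59 and -0.72, both called lower. Among genes named for their values, Phlda1 read 0.38, just under the fold limit, and Gadd45a 0.33, both with adjusted p under 0.002. Phlda1 was called higher with array B alone and without control sample 1, control sample 3 or moR-21 sample 3.

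The feedback inhibitors, which end the early response, had 2 of 17 detected members called lower and 0 higher, with a median of -0.04 and 7 with an unadjusted limma p under 0.05. Nfkbia, the inhibitor that holds NF-kB in the cytoplasm, changed by -0.56 (adjusted p = 2.94e-06, limma), from 9.70 to 9.86 in control to 9.16 to 9.30 in moR-21 samples. Dusp16, a phosphatase that acts on JNK, changed by -0.47 (adjusted p = 1.21e-05, limma), but its dimmer probe read -0.16 and was not called, and the mean of both probes, -0.31, was under the fold limit. With normexp both Nfkbia and Dusp16 read -0.63 and were called lower. Spred1 and Dusp4, named for their values, read 0.27 and 0.23, both with a limma adjusted p under 0.002 but under the fold limit.

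Of the upstream kinases and factors, 1 of 17 detected was called higher and 0 lower, with a median of 0.03 and 8 with an unadjusted limma p under 0.05. Map2k4, a kinase that phosphorylates JNK, lay between 8.52 and 8.66 in control and 9.46 and 9.63 in moR-21 samples on the log2 scale. Its log2 fold change of 0.97 (SE 0.055, adjusted p = 1.67e-08, limma) was the largest in size of the 88 detected genes in the 6 lists. With normexp it read 1.15 and was called higher. Map2k7, from the same list and named after its value had been seen, read -0.03 (adjusted p = 0.686, limma) and was not called. The JNK genes themselves, named after their values had been looked at, read -0.34 for Mapk9 (adjusted p = 0.00103, limma) and -0.18 for Mapk8 (adjusted p = 0.0116), neither of them called. Without moR-21 sample 1 Mapk9 was called lower.

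Among genes known as AP-1 or Egr1 targets, 1 of 17 detected was called lower and 2 higher, with a median of 0.05 and 5 with an unadjusted limma p under 0.05. The collagenase gene Mmp13 changed by -0.72 (adjusted p = 2.36e-07, limma) at its bright probe, while its dim probe, detected on 1 array, read -0.07. The stromelysin gene Mmp3 changed by 0.52 (adjusted p = 1.94e-05, limma), with dimmer probes at 0.56, which was called, and 0.33, which was not. Cd44, a hyaluronan receptor, changed by 0.41 (adjusted p = 5.71e-05, limma), and by 0.35 without control sample 3, where it was not called. With normexp Mmp13 read -0.79, Mmp3 0.54 and Cd44 0.69, all called in the same direction. The called targets thus moved in both directions, and 14 of the 17 detected were not called. Ccnd1, named for its value, read 0.29 (adjusted p = 3.50e-04, limma), under the fold limit. Over all 6 lists, 8 of 88 detected genes were called lower and 3 higher, beside 4.38% and 3.41% of all 8727 tested genes. The median of the 88 genes was 0.01. As the lists were chosen with earlier results of these data known, these counts are not independent of the data and no excess is read from them.

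**Figure D4:**
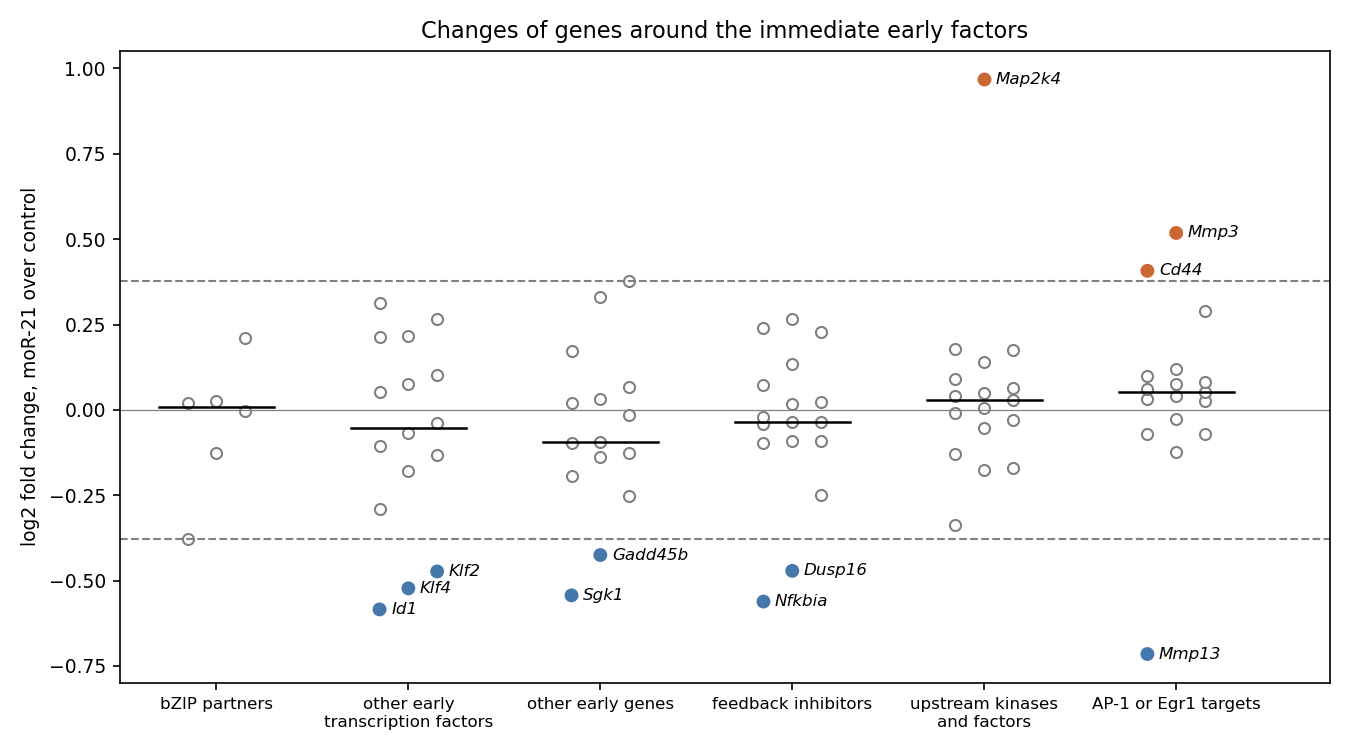
Log2 fold change of moR-21 over control (vertical axis) of each detected gene in the 6 lists (horizontal axis), at its brightest probe. Colored and named points were called, open points were not, black bars are list medians and dashed lines the fold limit of 1.3. The called points of the 3 lists of other early genes and feedback inhibitors all lie below 0, and Map2k4 stands highest.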

How the data were processed

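The authors deposited non-normalized probe intensities of 8 Illumina arrays, with no background correction stated. The deposited table pairs them with detection p-values, which compare a probe with negative control beads. The methods name BeadStudio, quantile normalization, lumi and limma, and name a pair of array designs. Every array column was assigned to a sample by its name (0 left over).

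Quantile normalization was applied to the intensities across the 8 arrays, log2 values were taken, repeat arrays were averaged, and limma 3.58.1 (R 4.3.3; lmFit, eBayes) compared 3 with 3 samples over the 11651 probes detected (p under 0.01) by 1 array or more, with Benjamini-Hochberg adjustment over all of them. Calls required more than a 1.3-fold difference together with an adjusted p below 0.002. The number of samples, 3 in each group, limits the precision. The script was tested on simulated data.

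The members, the 6 lists and the marker lists were chosen with earlier results of these data known. Genes named are all members, up to 3 called genes in each direction per list by size of change, and the markers, with others stated as singled out. Symbols are those of the table, and promoter windows, hairpin sequences and coordinates are RefSeq's (GRCm38.p6). The sequence of Egr1 was not used here. Alternatives were normexp background correction (offset 16), median scaling, cyclic loess, other detection filters, arrays A or B alone, all arrays with the sample as a random block, robust eBayes with a trend, a block for replicate number, leaving out samples in turn, other cutoffs and the mean of a gene's probes.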

Additional observations from a re-analysis of the deposited data

How the results depend on the processing

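Under 21 other settings, 19 planned and 2 added after seeing the data, the 5 tested members kept their direction wherever they were tested, and Fos was not tested where detection on all 8 arrays was required. The count of members called lower was 1 (Junb) and fell to 0 with normexp background correction, where 1 member (Jun) was called higher, with array B alone (Junb -0.38), and at a fold change over 1.5. Leaving out 1 sample at a time gave 0 to 1 called lower, with 0 without control sample 2 or moR-21 sample 3. With no fold limit, added after seeing the data, 2 were lower and 2 higher, and with normexp and no fold limit 0 were lower and 1 higher. The Jund1 change reversed to 0.0015 without moR-21 sample 1, and leaving out single samples gave -0.058 to 0.0015. With a replicate block 1 member was called lower and 0 higher, as without it. Samples of the same number correlated by 0.187, 0.0441 and 0.0597 in their deviations from the group means. Samples of different numbers correlated by -0.129 to 0.0693, and only moR-21 sample 2 with control sample 3 was positive among them. That value was over the 0.0441 of moR-21 sample 2 with control sample 2. The numbers were not taken to pair the samples, although these values do not exclude a pairing. Of the 11 called genes in the 6 lists, Map2k4 and Mmp13 alone were still called at a fold change over 1.5. Jdp2, Crem, Axud1, Phlda1 and Mapk9, all under the fold limit, were among the genes called under some settings, as given with their values. The causes were not tested. Atf3, Ier2, Fos and Jund1 are limited by signal near background.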
